A study of Homo sapiens with 10 samples.

Results

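The translation efficiency change after YTHDF1 knockdown was followed gene by gene in HCT116, an established human colorectal cancer cell line, in 6 of the 10 samples of the series. Ribosome profiling, which sequences the mRNA fragments covered by ribosomes (footprints), had 2 knockdown libraries, named shY1-1 and shY1-2 in the titles and here called knockdown 1 and knockdown 2, and 1 control library with a hairpin against GFP (shGFP). mRNA-seq had the same 3 conditions, with 1 library each. All samples received cycloheximide, which stalls ribosomes on mRNA, at 100 ug/ml for 3 min. The other 4 samples are an immunoprecipitation of YTHDF1-bound RNA (RIP), its input and 2 replicates of m6A-seq, all from control cells, and their gene lists serve here only to sort the genes. Translation efficiency (TE) of a gene is log2((footprint value + 1)/(mRNA value + 1)) with the median of all genes set to 0 in each condition, and the TE change is knockdown minus control. Of 6926 rows in the expression table, 12 had damaged names and 132 fell under the filter on low values, which left 6782 genes.

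YTHDF1 is a cytoplasmic protein whose YTH domain binds N6-methyladenosine (m6A), the most common internal base modification of mRNA. Writers such as METTL3 and METTL14 place the mark in the nucleus, often in the letters GGAC, erasers such as FTO and ALKBH5 remove it, and readers of the YTHDF family bind it in the cytoplasm. YTHDF1 is best known for work linking it to translation of marked mRNAs, and the stated aim of the series was to find mRNAs whose translation it regulates. A gene's TE can differ because footprints differ at a given mRNA level or because mRNA differs at a given footprint level, so both values are given below.

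The values are a deposited relative signal with no stated unit and no recoverable read count, so the depth behind each value is unknown. Footprint values summed to 940861 in knockdown 1 and 1042858 in knockdown 2, against 1229171 in the control, and mRNA values to 345453 and 340208, against 341359. YTHDF1 mRNA (chromosome 20, 63195429 to 63216131, GRCh38.p14) stood at 8.62 and 7.81 in the knockdown libraries, against 27.4 in the control, and its footprints at 17.0 and 19.9, against 61.4. Both assays were thus lower in every knockdown library, and bulk RNA cannot tell fewer silenced cells from less silencing per cell. Of 6 epithelial markers 5 were in the table, with summed footprints of 3141 and 1803, against 2333, and summed mRNA of 5497 and 3402, against 3917. Their members went different ways. EPCAM had footprints of 613 and 496, against 630, and KRT19 had 483 and 299, against 273. Of 6 fibroblast markers 3 were in the table, with summed values of at most 17.0 in any library, among them COL1A1 with footprints of 13.2 and 3.71, against 0.631, and FN1 with 0.312 and 1.88, against 10.5. Of 5 blood cell markers CD68 alone was in it, with footprints of 10162 and 9485, against 15090, on mRNA values of 4.98 and 19.9, against 19.9. What gives CD68 footprints this far above its mRNA was not tested, so they do not show blood cells or strong CD68 translation. The labels do not say whether the libraries came from separate cultures, nor whether shY1-1 and shY1-2 are different hairpins or repeats of 1. The p-values below measure differences against the scatter of knockdown 1 and knockdown 2, which may be technical, and assume that the lone control of each assay varies likewise.

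Footprints per mRNA were lower overall in the knockdown libraries before centring. The median TE was 0.90 in knockdown 1 and 0.71 in knockdown 2, against 1.08 in the control, a shift of -0.18 and -0.37. Relative signals cannot show whether this is a change in total translation, and every TE change below is relative to the median gene, so that without centring each would stand lower by these amounts. No gene passed in limma (0 of 6782, 0%, adjusted p under 0.05). The smallest adjusted p was 0.397, and 177 genes had an unadjusted p under 0.05, 107 with higher and 70 with lower TE in the knockdown, where chance alone would give 339. The median standard error of a gene's TE change was 0.66 on the log2 scale, and the median SD between the knockdown libraries was 0.30 (n = 2). Over genes, TE changes spread more widely in knockdown 1 (SD 0.92) than in knockdown 2 (SD 0.78). Both knockdown libraries lay above the control in 2340 genes (34.5%) and below it in 2261 (33.3%). At least 2-fold above in both were 266 genes (3.92%), and at least 2-fold below in both were 222 (3.27%). For a single gene an exact permutation test of 2 libraries against 1 cannot go below p = 0.333.

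Among the 3476 genes with a mean value of at least 10 in both assays, the 8 highest by the knockdown change nearest to 0 were FBXL16, CDKL1, SVIL, DCXR, NFIX, SYDE1, THEM4 and HMOX1. They were chosen by these values, which are a description. SVIL encodes supervillin, a membrane scaffold that binds actin (chromosome 10, 29457338 to 29736936). Its footprints were 36.3 and 9.88 in the knockdown libraries, against 2.64 in the control, and its mRNA 21.5 and 4.96, against 19.4. The TE change was 3.39 in knockdown 1 and 3.73 in knockdown 2, reached through footprints in knockdown 1 and through both assays in knockdown 2. CDKL1, a kinase related to the cyclin-dependent kinases (chromosome 14, 50326265 to 50397298), had footprints of 4.30 and 40.9, against 3.69. Its mRNA was 4.57 and 13.6, against 26.7. The TE change of 2.68 in knockdown 1 therefore reflects mainly lower mRNA, while that of 4.46 in knockdown 2 reflects mainly higher footprints. SYDE1, a GTPase-activating protein (chromosome 19, 15107401 to 15114974), had footprints of 21.6 and 11.8, against 2.00, and TE changes of 2.27 and 3.38. HMOX1 encodes heme oxygenase 1, which breaks down heme and is induced by oxidative stress (chromosome 22, 35381096 to 35394207). Its footprints were 100 and 24.7, against 5.03, its mRNA 34.2 and 8.34, against 7.30, and its TE changes 2.17 and 2.30. The knockdown libraries thus had like TE changes while differing widely from each other in both assays. FBXL16, an F-box protein, had TE changes of 4.02 and 4.30, DCXR, a carbonyl reductase, 3.82 and 3.03, NFIX, a transcription factor, 4.04 and 2.38, and THEM4, an acyl-CoA thioesterase, 2.35 and 2.46. Of the 8 genes 7 had a control footprint value under 10, and DCXR was the exception at 196. The mean TE changes of the 8 lay between 2.23 and 4.16 with SEs of 0.47 to 1.80, and limma gave adjusted p values from 0.397 to 1.00.

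The 8 lowest by the same rule were GATAD2B, SNX1, ARL14EP, VGLL4, SAMD4B, ARMC8, PDDC1 and MAP2K7. VGLL4, a cofactor of TEAD transcription factors that counteracts YAP (chromosome 3, 11556067 to 11721815), had footprints of 605 and 30.8 in the knockdown libraries, against 1491 in the control. Its mRNA was 18.4 and 7.52, against 6.59. The TE change was -2.47 in knockdown 1 and -5.34 in knockdown 2, so the gap between the knockdown libraries was larger than the smaller change. MAP2K7, a kinase that activates JNK (chromosome 19, 7903877 to 7914478), had footprints of 30.3 and 14.1, against 101, at mRNA values of 30.1 and 22.7, against 23.3. Its TE changes were -1.87 and -2.34, with both knockdown libraries well below the control in footprints and near it in mRNA. PDDC1 had footprints of 3.70 and 24.8, against 60.9, with mRNA of 9.28 and 18.1, against 7.89. Its TE changes of -3.75 and -1.99 therefore joined lower footprints to higher mRNA. GATAD2B, a subunit of the NuRD chromatin complex (-4.62 and -4.16), SNX1, a sorting nexin of endosomes (-3.55 and -3.83), and SAMD4B, an RNA-binding protein (-2.04 and -2.05), differed mainly in footprints. ARL14EP (-2.53 and -2.85) and ARMC8, an armadillo repeat protein (-2.03 and -2.32), differed mainly in mRNA, which was 77.4 and 72.8, against 9.50, for ARL14EP and 107 and 89.3, against 13.6, for ARMC8. Mean changes of the 8 lay between -4.39 and -2.04 with SEs of 0.44 to 2.12 and limma adjusted p values from 0.397 to 1.00.

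**Figure D1:**
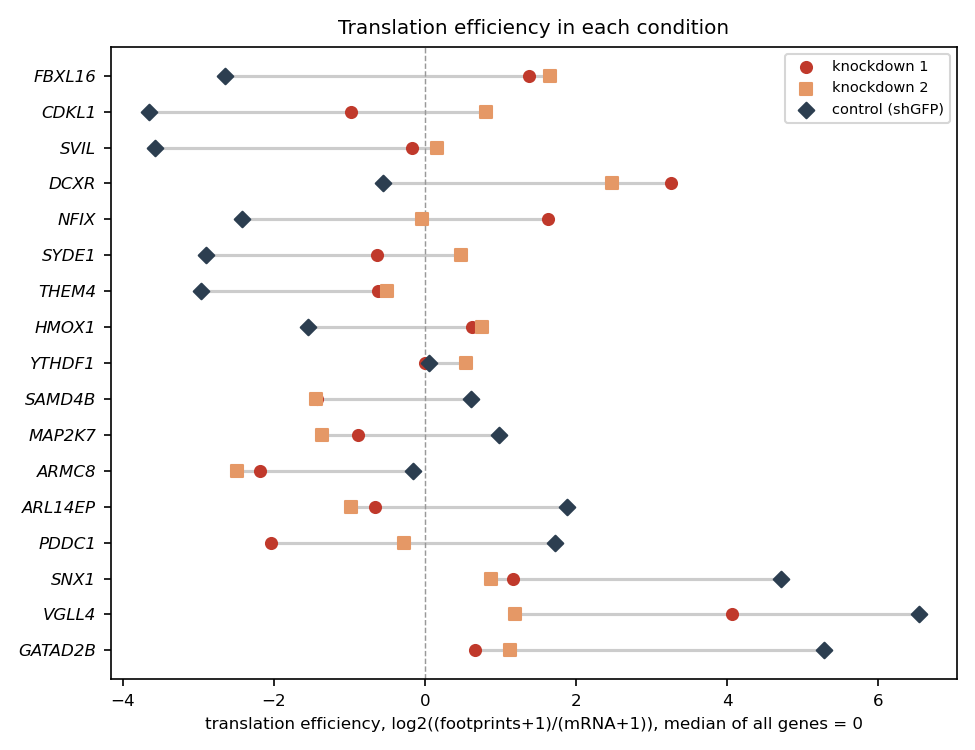
Translation efficiency on the log2 scale (horizontal axis, median of all genes at 0) of YTHDF1 and of the 8 highest and 8 lowest genes named by the rule, with 1 mark for each knockdown library and 1 for the control library. The control diamonds of the highest 8 lie between -3.65 for CDKL1 and -0.56 for DCXR, and those of the lowest 8 between -0.16 for ARMC8 and 6.53 for VGLL4, while the 3 marks of YTHDF1 lie from about 0 to 0.54.

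The position of these genes in the control itself is part of each value, because the same control library enters TE and its change. The 8 highest genes stood between percentile 0.752 and percentile 34.5 of control TE, and the 8 lowest between 45.6 and 99.97. In the knockdown libraries GATAD2B and SNX1, at percentiles 99.8 and 99.7 in the control, stood between 69.0 and 81.7. Across all genes sorted into 10 equal groups by control TE, the median mean TE change ran from 0.44 in the lowest group to -0.32 in the highest. Both knockdown libraries lay at least 2-fold above the control in 13.99% of the lowest group and 0.442% of the highest, and at least 2-fold below it in 0.442% of the lowest and 8.25% of the highest. The share of this that error in the single control library gives was not tested. YTHDF1 itself had TE changes of -0.05 and 0.49, a mean of 0.22 ± 0.57 (SE, n = 2), so footprints and mRNA of the silenced gene were lower by like amounts. Its mean sign turned without centring (-0.06).

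TE change also varied with mRNA level. In 10 equal groups of genes by control mRNA, from values of 0.501 to 2.14 in the lowest group to values of at least 85.4 in the highest, the median mean TE change was -0.20, -0.04, -0.09, -0.03, 0.02, 0.00, 0.08, 0.04, 0.06 and 0.07. Both knockdown libraries were above the control in 23.7% of the lowest group and 41.2% of the highest. The typical size of the mean change, taken without its sign, was 0.60 in the lowest group and 0.24 in the highest, so values scattered more widely at low levels. For this reason many classes and families below are also given level-matched, that is, after subtracting from each gene's TE change the median of its own group. Others are given only unmatched, and those medians do not account for mRNA level.

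Genes were next sorted by the number of m6A peaks per gene, averaged over the 2 m6A-seq replicates, which listed 24494 and 24855 peaks. Of the 6782 genes, 5647 (83.3%) had a peak in at least 1 replicate and 4918 in both. TE change hardly differed by peak number. Median changes in knockdown 1 were -0.05 in the 1135 genes with no peak, 0.02 in 1471 genes with up to 1, 0.03 in 1492 with more than 1 and up to 2, 0.00 in 1690 with more than 2 and up to 4, and 0.00 in 994 with more than 4. In knockdown 2 the medians in the same classes were 0.08, 0.05, 0.04, -0.03 and -0.07. Knockdown 2 thus ran downward with peak number and knockdown 1 did not. Level-matched, the mean change of the genes with more than 4 peaks stood -0.02 from that of the genes with none, with 0.05 in knockdown 1 and -0.12 in knockdown 2. The 2 libraries have opposite signs, and the difference is smaller than the spread between them (SD 0.12, n = 2).

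The counts were as close. Both knockdown libraries lay below the control in 32.3%, 32.4%, 31.6%, 34.9% and 35.8% of genes from no peak to more than 4 peaks, beside 33.3% of all genes. Both lay above in 34.1%, 37.0%, 35.8%, 33.1% and 31.7%, beside 34.5%. At least 2-fold below in both were 3.82% of genes with more than 4 peaks and 4.14% of those with none, beside 3.27% of all genes. No gene in any class passed in limma. In the control itself, median TE was -0.15 in genes with more than 4 peaks, against 0.20 in genes with none.

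Features of the peaks were also set beside TE change. The letters GGAC at the authors' m6A position marked 30.7% of peaks in replicate 1 and 29.5% in replicate 2. The 1100 genes whose strongest peak carried GGAC in both replicates had median TE changes of 0.06 in knockdown 1 and 0.01 in knockdown 2, against -0.01 and -0.01 in the 2987 genes with another motif in both. Split by the next letter, those with GGACT (277 genes) stood at 0.08 and 0.03, with GGACC (320) at 0.08 and 0.00, and with GGACA (347) at 0.06 and about 0. The 882 genes with a strongest peak in the top 25% of deposited peak ratios in both replicates had level-matched medians of 0.03 and -0.01, against 0.01 and 0.00 in the 683 genes of the bottom 25%. Genes whose first peak lay within 200 bases of the transcript start in both replicates (306 genes) had level-matched medians of -0.11 and -0.03, against 0.01 and -0.02 in 4338 genes with a first peak further in. Among these 306 genes 37.9% lay below the control in both knockdown libraries and 31.0% above, beside 33.3% and 34.5% of all genes. Their median control TE was 0.41, between those of groups 6 and 7 by control TE, counted from the lowest (0.18 and 0.51). In these groups 36.0% and 37.8% of genes were below in both, and 32.7% and 28.6% above.

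**Figure D2:**
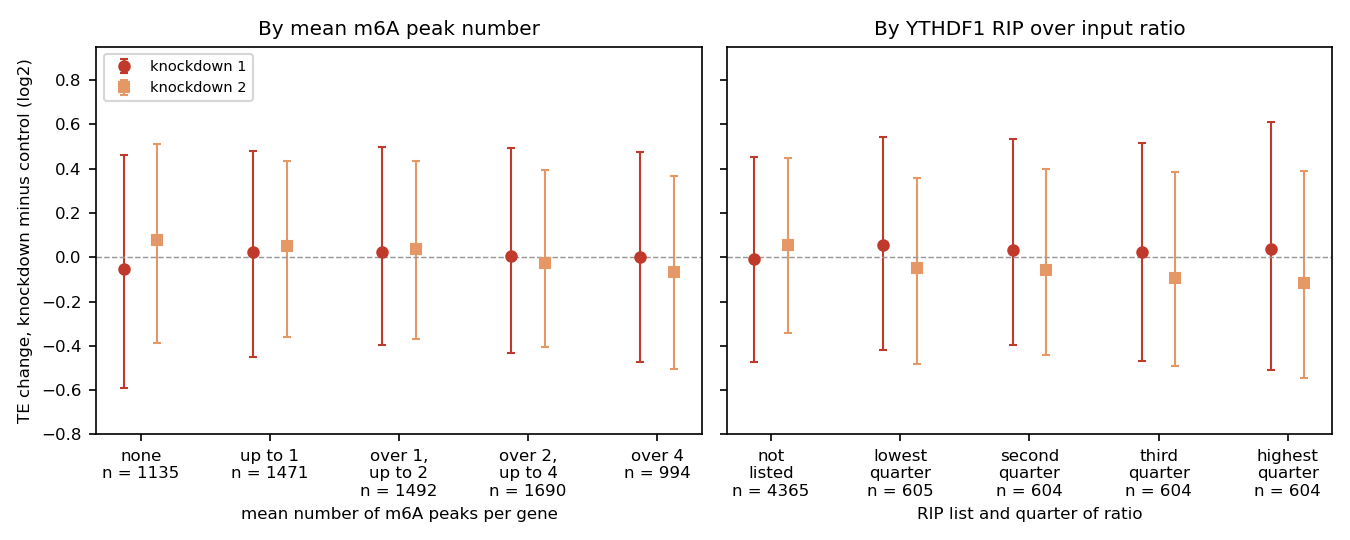
Median TE change on the log2 scale (vertical axis, marks) with the range from the lower to the upper quartile of genes (bars), for each knockdown library, by mean m6A peak number per gene and by place in the YTHDF1 RIP list. All medians lie between -0.12 and 0.08 while the quartiles reach at least 0.34 to either side, and in all 4 groups of listed genes knockdown 1 lies above 0 and knockdown 2 below.

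The RIP list names genes whose YTHDF1 immunoprecipitate exceeded input at least 1.5-fold in FPKM (3939 rows, 1 library each), and 2417 of the tested genes were on it. Listed genes had lower control TE than the rest, with a median of -0.41, against 0.23 in the 4365 genes not listed. Their TE changes after knockdown went opposite ways in the 2 libraries. The median was 0.04 in knockdown 1 and -0.08 in knockdown 2 for listed genes, against -0.01 and 0.06 for genes not listed. Level-matched, listed minus not listed was 0.05 in knockdown 1 and -0.10 in knockdown 2, a mean of -0.02 (SD 0.11, n = 2). The count below the control in both was 838 of 2417 listed genes (34.7%) and 1423 of 4365 not listed (32.6%), beside 33.3% of all genes.

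Within the list the ratio made little difference. In 4 equal groups from the lowest ratios (up to 1.84) to the highest (3.02 to 111), medians were 0.06, 0.03, 0.02 and 0.04 in knockdown 1 and -0.05, -0.06, -0.10 and -0.12 in knockdown 2. The 290 genes in the highest group with more than 4 peaks, which combine the strongest recovery with the densest marking, stood at 0.07 and -0.13. The 109 listed genes without a peak stood at 0.06 and 0.10, so the negative medians of knockdown 2 were those of the 2308 listed genes with a peak (0.04 and -0.08). Whether knockdown 2 and knockdown 1 differ by hairpin, culture or library cannot be told apart.

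Single genes with dense marks and strong recovery were as varied. A pair of sets of 10 genes each, overlapping in 4 genes, took the listed genes with the most peaks and those with the highest ratio among genes at or above the median control mRNA. Of these 16 genes 6 lay below the control in both knockdown libraries, 3 above in both and 7 on either side, where 33.3% of all genes were below in both and 34.5% above. MACF1, a giant linker of actin and microtubules (chromosome 1, 39084167 to 39487138), had 28 peaks in each replicate and a RIP ratio of 7.30. Its footprints were 10.8 and 22.1 in the knockdown libraries, against 7.84 in the control, and its TE changes 0.04 and 1.49. HERC2, a large ubiquitin ligase (chromosome 15, 28111040 to 28322179), had 18 and 17 peaks, a ratio of 13.5, footprints of 3.24 and 7.65, against 7.73, and TE changes of -1.17 and 0.03. Each of these genes thus stood apart from the control in 1 knockdown library and at its level in the other. AHNAK, a very large scaffold protein with 15 and 17 peaks and a ratio of 13.4, likewise had TE changes of 1.47 and -0.23.

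The members of these sets with both libraries below the control included ACACA, the acetyl-CoA carboxylase of fatty acid synthesis (chromosome 17, 37084992 to 37406836). It had footprints of 54.9 and 59.7, against 103, mRNA of 28.2 and 39.4, against 30.9, and TE changes of -0.58 and -0.74. IRS1, the adaptor of the insulin receptor (chromosome 2, 226731312 to 226799820), had footprints of 9.80 and 5.44, against 13.7, and TE changes of -0.71 and -0.86. SNRNP200, a helicase of the spliceosome (chromosome 2, 96274338 to 96305546), had footprints of 52.7 and 40.0, against 76.9, and TE changes of -0.64 and -0.61. For these 3 genes the knockdown libraries lay close together, yet the SEs of the mean changes were 0.52 for ACACA, 0.67 for IRS1 and 0.46 for SNRNP200, and all 16 genes had a limma adjusted p of 1.00. BPTF, a chromatin remodelling subunit, stood at -0.87 and -0.42. CLTC, the clathrin heavy chain, with 16 and 10 peaks, had footprints of 468 and 473, against 557, and TE changes of -0.03 and -0.10. MTOR, the kinase that controls growth, stood at 0.22 and 0.11.

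Gene families were compared next, beginning with the translation machinery. The 50 cytosolic ribosomal protein genes, which code for the parts of the ribosome, had a median TE change of -0.35 in knockdown 1 and 0.24 in knockdown 2, and level-matched of -0.40 and 0.14. In knockdown 1 41 of the 50 lay below the control, where 49.6% of all genes did, and in knockdown 2 35 of the 50 lay above it, where 50.8% of all genes did. The family thus went opposite ways in the 2 libraries. Only 8 members lay above the control in both and 14 below in both (16% and 28%, beside 34.5% and 33.3% of all genes). In knockdown 1 the median footprint change was -0.14 and the median mRNA change 0.28, and in knockdown 2 they were 0.15 and -0.07.

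Ribosomal protein and elongation factor mRNAs are known for a 5′ terminal oligopyrimidine (TOP) start, through which the kinase mTOR controls their translation. The starts of 5 genes are shown because their TE changes are among the lowest of this group and they hold or lack these letters. Each line gives 15 bases before and 15 bases from the start annotated in RefSeq, GRCh38.p14, on the gene's strand, with the start letter and the 4 letters after it in capitals.
EEF2, chr19:3985449-3985478, minus strand: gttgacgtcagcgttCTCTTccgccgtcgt
RPSA, chr3:39406705-39406734, plus strand: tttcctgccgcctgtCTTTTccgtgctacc
RPL27A, chr11:8682777-8682806, plus strand: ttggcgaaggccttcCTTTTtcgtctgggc
RPL22, chr1:6199581-6199610, minus strand: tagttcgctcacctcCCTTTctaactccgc
RPL3, chr22:39319609-39319638, minus strand: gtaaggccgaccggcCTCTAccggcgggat
The first 4 begin with a C followed by 4 pyrimidines (C or T), and RPL3 has an A at the last of these letters by this annotation. Read on the gene's strand at the annotated start alone, this pattern occurs in 4.04% of 27305 RefSeq promoters and 5.53% of the 5482 tested genes with a promoter sequence. Among the cytosolic ribosomal protein genes it is common, with 26 of the 42 that have a promoter sequence. The 5 genes were picked, so their letters do not show a link to TE change.

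EEF2, the factor that moves the ribosome along the mRNA, had footprints of 7749 and 10767 in the knockdown libraries, against 27004 in the control, at mRNA values of 1671 and 1363, against 1358. Its TE changes were -1.92 and -0.96, both below the control, with a mean of -1.44 ± 0.54 (SE, limma adjusted p = 1.00). RPSA, a protein of the small subunit, had footprints of 397 and 659, against 1203, and TE changes of -1.50 and -0.45. RPL27A, of the large subunit, had 1275 and 1626, against 3114, and TE changes of -1.56 and -0.56. RPL22, also of the large subunit, had 243 and 232, against 525, and TE changes of -1.31 and -0.82. RPL3, without the letters, had 67212 and 120165, against 232668, and TE changes of -1.26 and -0.35. In all 5 genes both knockdown libraries had fewer footprints than the control, and in each the TE change was larger in size in knockdown 1. The 5 were chosen for low TE changes, so this describes them alone. Of the 50 ribosomal protein genes 14 lay below the control in both libraries, and 35 lay above it in knockdown 2.

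Ribosomal protein genes with TOP letters (26) had median TE changes of -0.35 and 0.23, against -0.44 and 0.27 in the 16 with other start letters, and their median control TE was 0.17, against -0.45. The difference between these groups was not tested. All 303 tested genes with TOP letters stood at -0.09 and 0.05, against 0.01 and 0.01 in 5179 genes with other letters. Many ribosomal protein genes hold small nucleolar RNA (snoRNA) genes in their introns, whose reads may fall in either assay. The 15 that do had medians of -0.46 and 0.38, against -0.35 and 0.23 in the 35 that do not, but the widest values were among the 15. RPL27A and RPSA, described above, are among the 15, with RPL27A the lowest of them in knockdown 1 (-1.56). RPL22 is among the 35, where it is the lowest in knockdown 1 (-1.31). Of the 9 translation elongation and release factors, EEF2 among them, 2 hold a snoRNA gene. The level-matched median of the mean change of these factors was -0.09. It became 0.22 without genes that hold a snoRNA or miRNA. RPL5 had footprints of 1926 and 6237 in the knockdown libraries, against 1256 in the control, and TE changes of 1.07 and 2.61, and RPL23A had 1985 and 7283, against 1415, and changes of 0.52 and 2.70.

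**Figure D3:**
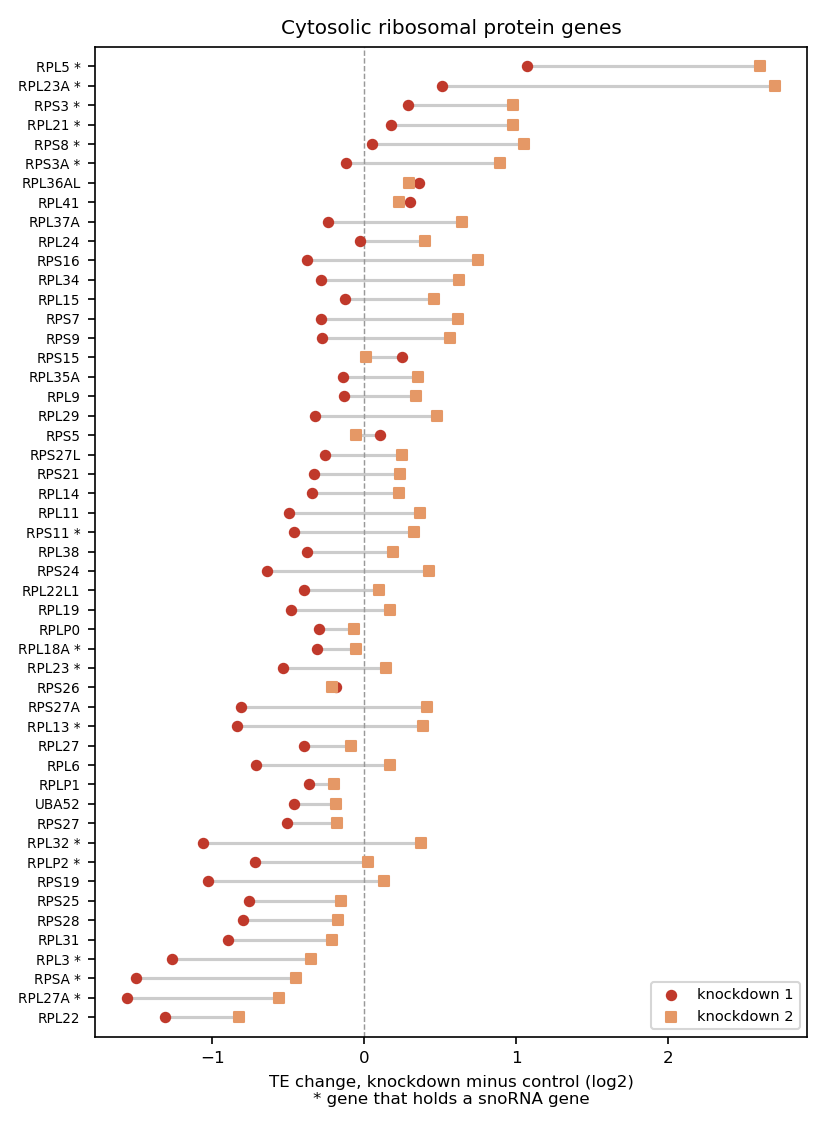
TE change on the log2 scale (horizontal axis) of the 50 cytosolic ribosomal protein genes in each knockdown library, ordered by the mean of both, with a star at the 15 genes that hold a snoRNA gene. Most genes have the knockdown 1 mark left of 0 and the knockdown 2 mark right of it, RPL5 and RPL23A lie farthest right at 2.61 and 2.70 in knockdown 2, and RPL22 is left of 0 in both.

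The 48 mitochondrial ribosomal proteins, which translate the few proteins coded by mitochondrial DNA, stood at 0.05 and 0.16, level-matched at 0.00 and 0.09. Of these 25 lay above the control in both (52.1%, beside 34.5% of all genes) and 11 below in both. MRPL17 stood at 1.12 and 1.22, with footprints of 274 and 271, against 164, and MRPL55 at -1.80 and -1.20, with footprints of 71.3 and 102, against 383. The 39 translation initiation factors stood at -0.08 and -0.01, level-matched at -0.11 and -0.03. Of these 10 lay above and 13 below in both (25.6% and 33.3%, beside 34.5% and 33.3% of all genes). PABPC4, a poly(A)-binding protein, was their highest at 1.94 and 1.36 with footprints of 548 and 342, against 151, and EIF3L, a subunit of the eIF3 complex, their lowest at -1.38 and -0.21. The 21 aminoacyl-tRNA synthetases, which load tRNAs with amino acids, had 4 above and 9 below in both (19.0% and 42.9%, beside 34.5% and 33.3%). Their median control TE was 0.46. In group 7 of the 10 by control TE, counted from the lowest (median 0.51), 28.6% of genes were above and 37.8% below in both. Among the synthetases WARS, for tryptophan, stood at -1.63 and -2.18, with footprints of 132 and 111, against 609. None of these family members passed in limma.

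Subunits of the respiratory chain and ATP synthase (43 genes) had median TE changes of 0.09 and 0.15, level-matched 0.04 and 0.09. With 22 members above the control in both libraries and 6 below in both, 51.2% were above and 13.95% below, beside 34.5% and 33.3% of all genes. These mRNAs are abundant, and in the highest of the 10 groups by control mRNA 41.2% of genes were above in both and 27.2% below. COX5A, a subunit of cytochrome c oxidase, had footprints of 369 and 316, against 148, at mRNA of 172 and 156, against 164, and TE changes of 1.43 and 1.54. The 3 members with the most mRNA, NDUFS5 of complex I (0.25 and 0.49), COX4I1 of complex IV (0.09 and 0.05) and ATP5I of ATP synthase (0.09 and 0.39), were slightly above in both. In the RIP list were 2 of the 43 (4.65%, beside 35.6% of all genes and 17.1% of the highest group by control mRNA). The median peak number of the 43 was 0.50, against 2 over all genes and 1 in that highest group. Among 25 proteasome subunits 8 lay above and 8 below in both (32% each, beside 34.5% and 33.3% of all genes). The 5 tested subunits of the CCT chaperonin, which folds actin and tubulin, had level-matched medians of 0.27 and 0.10.

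RNA helicases, SR and hnRNP proteins and nucleoporins had negative medians in both libraries. The 27 other spliceosome proteins (SF3 and PRPF) stood at -0.01 and 0.01, and level-matched at -0.06 and -0.05, also negative in both. Of these 8 lay above and 8 below in both (29.6% each, beside 34.5% and 33.3% of all genes). The 34 DEAD and DEAH box helicases, enzymes that unwind RNA, had median TE changes of -0.16 and -0.33, level-matched -0.20 and -0.37. Of these 7 lay above the control in both (20.6%, beside 34.5% of all genes) and 18 below (52.9%, beside 33.3%). Their median control TE was 0.47. In group 7 of the 10 by control TE, counted from the lowest (median 0.51), 37.8% of genes were below in both. In the RIP list were 19 of the 34 helicases (55.9%, beside 35.6% of all genes). DDX55 had footprints of 16.4 and 27.0, against 59.1, and TE changes of -1.58 and -1.07, while the abundant DDX5 stood at -0.19 and -0.39 and DDX54 at -0.43 and -0.45. SR and hnRNP splicing proteins (19 genes) had level-matched medians of -0.24 and -0.15. Of these 5 lay above and 10 below in both (26.3% and 52.6%, beside 34.5% and 33.3% of all genes). Their median control TE was 0.48, also near that of group 7, where 37.8% of genes were below in both. SRSF6, an SR protein, had footprints of 36.2 and 69.5, against 122, and changes of -1.25 and -0.53, while HNRNPUL1 stood above in both at 0.82 and 0.87. Nucleoporins, which build the nuclear pore, had 8 of 16 members below in both (50%, beside 33.3% of all genes), yet also 3 at least 2-fold above in both (18.75%, beside 3.92%). NUP93 (1.67 and 1.22) and NUP85 (1.11 and 1.30) were among these, with footprints of 157 and 109, against 66.4, for NUP93 and 195 and 256, against 132, for NUP85.

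Kinesins, the motors that walk along microtubules, had median TE changes of -0.21 and -0.40 in 18 genes. Of these 15 were in the RIP list (83.3%, beside 35.6% of all genes). In both libraries 4 lay above the control (22.2%, beside 34.5%) and 10 below (55.6%, beside 33.3%). Their median control TE was 1.04. In groups 8 and 9 of the 10 by control TE, counted from the lowest (medians 0.90 and 1.35), 39.5% and 49.6% of genes were below in both. Control mRNA of the kinesins was low, with a median of 6.82. Their level-matched mean of -0.27 became 0.18 when only genes with a mean value of at least 10 in both assays were kept. KIF5C, at footprints of 1.39 and 5.10, against 15.9, stood lowest (-2.88 and -1.74), while the 3 kinesins with the most mRNA stood at 0.65 and -0.49 (KIF1C), 0.30 and 0.36 (KIF22) and 0.44 and 0.29 (KIF2C). RAB GTPases, which direct vesicle traffic, had 17 of 32 members below in both (53.1%, beside 33.3% of all genes). Their median control TE was 0.47, and in group 7 of the 10 (median 0.51) 37.8% of genes were below in both. The level-matched medians of the RAB genes, however, were -0.42 in knockdown 1 and -0.03 in knockdown 2. Subunits of RNA polymerases I, II and III had the highest level-matched median of the mean change among the 31 families (0.27). Their level-matched medians were 0.34 and 0.16 in 17 genes. Of these 8 lay above and 3 below in both (47.1% and 17.6%, beside 34.5% and 33.3% of all genes). In knockdown 2 alone the m6A writers, erasers and readers had a higher level-matched median (0.23). POLR1D, shared by RNA polymerases I and III, had footprints of 733 and 577, against 238, and TE changes of 1.97 and 1.64. POLR2E stood at 0.74 and 0.72 and POLR3C at -1.11 and -0.82.

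**Figure D4:**
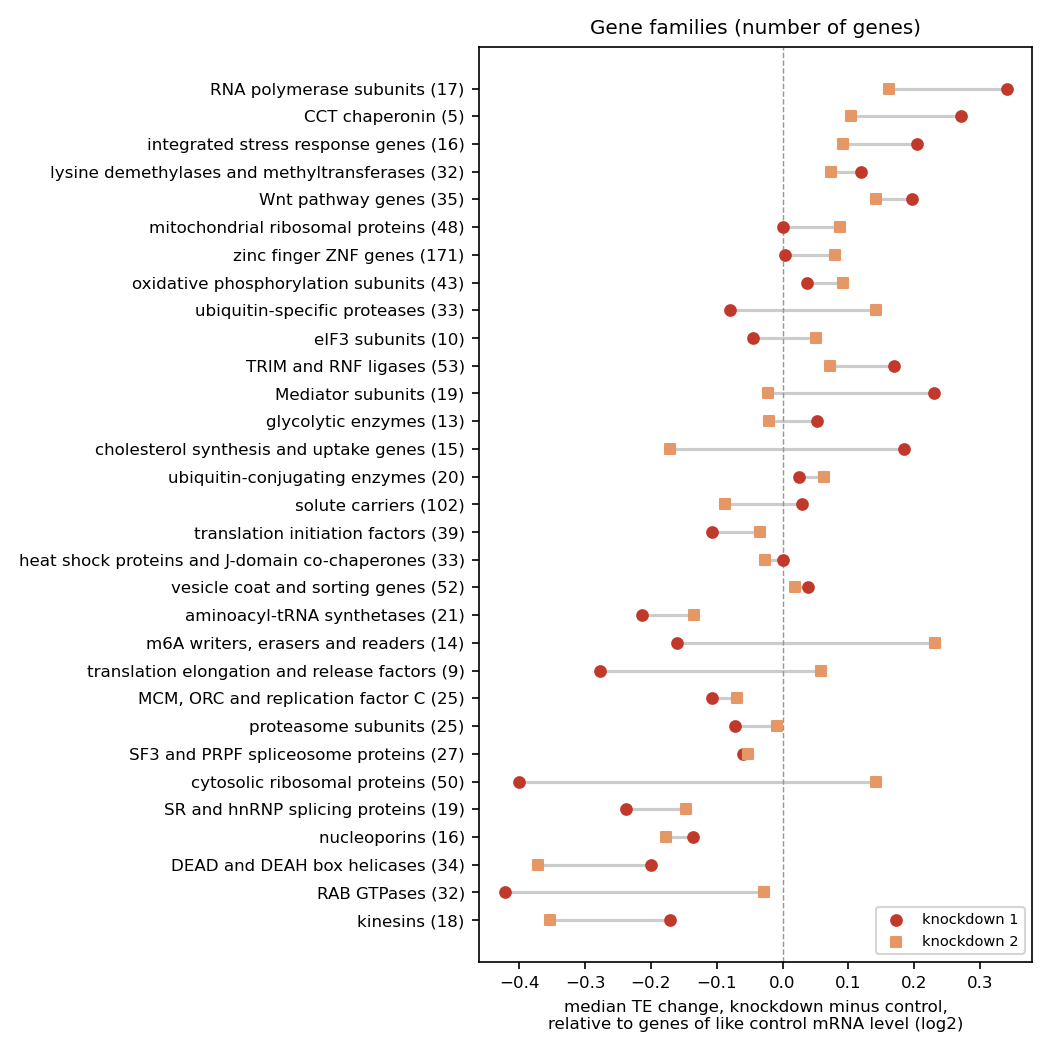
Level-matched median TE change on the log2 scale (horizontal axis) of 31 gene families with their number of tested genes, 1 mark per knockdown library, ordered by the median of the gene means. The mean level-matched medians of the highest and lowest family are 0.53 apart, and the marks of cytosolic ribosomal proteins lie on opposite sides of 0 at -0.40 and 0.14.

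The m6A machinery was measured in 14 genes, with medians of -0.12 and 0.21 and with 5 above and 5 below the control in both libraries, beside 34.5% and 33.3% of all genes. METTL16, which methylates U6 snRNA and the MAT2A mRNA, had footprints of 59.5 and 45.2, against 35.3, mRNA of 6.99 and 9.68, against 12.3, and TE changes of 1.65 and 1.03. METTL5, which methylates ribosomal RNA, had footprints of 439 and 522, against 235, and TE changes of 0.86 and 1.84, and its gene holds a snoRNA. Of the core writers METTL3 stood below the control in both, at -0.66 and -0.38, and METTL14 on either side of it, at -0.46 and 0.35. Of the erasers ALKBH5 stood at 0.25 and 0.51, and of the readers YTHDF2 at 0.57 and 0.44 with footprints of 90.4 and 86.2, against 59.3. IGF2BP2, another m6A reader, stood at 0.74 and 1.05. In the integrated stress response, the program that the transcription factor ATF4 carries out when initiation is blocked, 8 of 16 genes were above and 5 below in both, beside 34.5% and 33.3% of all genes. Their median control TE was low, at -0.81. In group 3 of the 10 by control TE, counted from the lowest (median -0.96), 41.6% of genes were above in both. ATF4 had footprints of 213 and 131, against 720, at mRNA of 168 and 196, against 181, and TE changes of -1.46 and -2.19. XBP1, a transcription factor of the unfolded protein response, stood at 0.76 and 1.72, with footprints of 72.5 and 75.5, against 68.3, and lower mRNA of 71.6 and 43.3, against 101.

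Wnt signalling drives most colorectal cancers through beta-catenin, and 35 of the 38 Wnt pathway genes in the table were tested. Their median TE changes were 0.16 and 0.13, level-matched 0.20 and 0.14, with 15 above (42.9%, beside 34.5% of all genes) and 5 below the control in both (14.3%, beside 33.3%). At least 2-fold above in both were 6 of the 35 (17.1%, beside 3.92% of all genes). At least 2-fold below in both were 0 of the 35, beside 3.27% of all genes. Their median control TE was low, at -0.97, near that of group 3 of the 10 by control TE, counted from the lowest (median -0.96). From the lowest group to group 3, 13.99%, 10.8% and 3.54% of genes were at least 2-fold above in both. At least 2-fold below in both were 0.442%, 1.33% and 1.33%. In the 3 lowest of these groups 61.9%, 48.2% and 41.6% of genes were above in both. Without genes that hold a snoRNA or miRNA the level-matched mean of 0.08 became 0.25. Of the 35 genes 20 were in the RIP list (57.1%, beside 35.6% of all genes), and none passed in limma.

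Signalling starts with secreted ligands and their receptors. WNT10B, a ligand, had footprints of 5.42 and 2.51, against 1.28, and TE changes of 1.83 and 1.57. The co-receptors differed, with LRP5 at 1.19 and -0.43 and LRP6 at -0.65 and -0.35, and the receptor FZD5 stood at 0.16 and -0.13 on footprints under 1. Dishevelled proteins pass the signal from the receptor. DVL2 had footprints of 45.1 and 31.5, against 9.82, mRNA of 19.4 and 27.9, against 27.3, and TE changes of 2.74 and 1.93. DVL1 stood at 1.21 and 1.06 on footprints of 2.47 and 2.19, against 1.06, and DVL3 at -0.51 and -0.21, so the 3 Dishevelled genes did not share a direction.

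The destruction complex marks beta-catenin for breakdown. CTNNB1, which codes for beta-catenin, had footprints of 424 and 370, against 429, and TE changes of 0.30 and 0.00. Of the complex, AXIN1 stood at 0.12 and -0.99 and GSK3B at 0.27 and -0.11, with the knockdown libraries on opposite sides of the control in both genes. Further partners act in the nucleus. BCL9, a coactivator, had footprints of 15.8 and 6.98, against 2.71, and TE changes of 2.19 and 1.83, and TLE3, a corepressor, 105 and 54.5, against 34.2, and changes of 1.86 and 1.28. The acetyltransferases CREBBP (1.05 and 1.73) and EP300 (0.80 and 1.09) were above in both. TCF7L2, the DNA-binding partner of beta-catenin, had footprints of 42.2 and 143, against 229, and TE changes of -1.70 and -0.66, and its gene holds a snoRNA. CHD8, a chromatin remodeller whose gene also holds snoRNAs, had footprints of 19.6 in knockdown 1 and 1228 in knockdown 2, against 1275, and TE changes of -6.03 and 0.24.

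**Figure D5:**
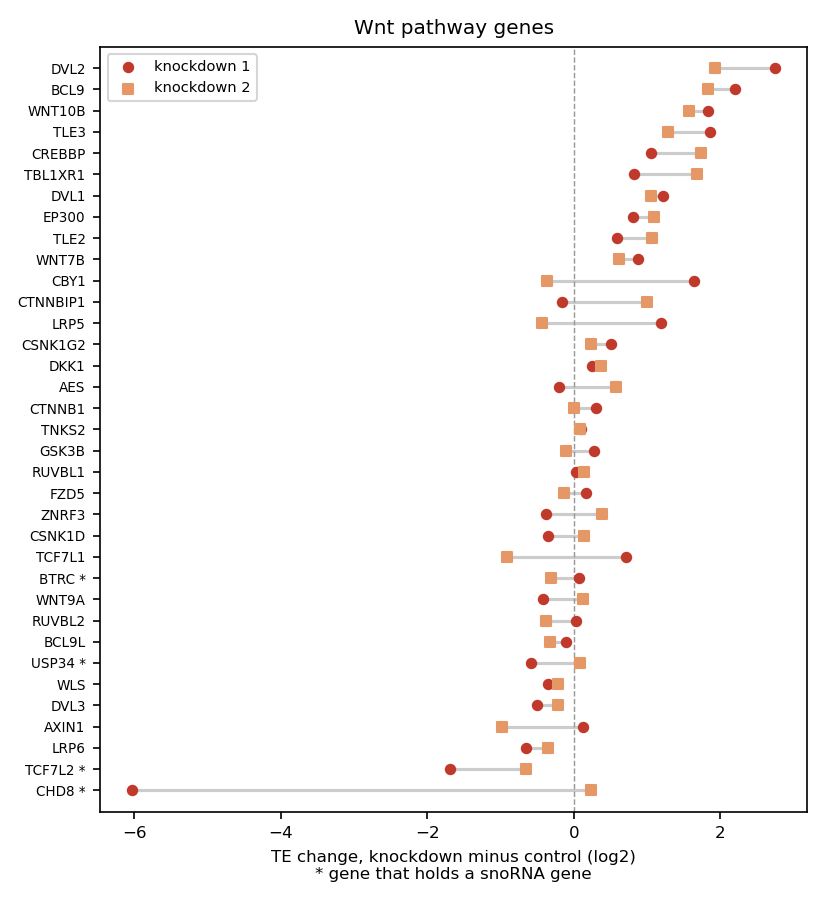
TE change on the log2 scale (horizontal axis) of 35 Wnt pathway genes in each knockdown library, ordered by the mean of both, with a star at genes that hold a snoRNA gene. DVL2, BCL9, WNT10B, TLE3, CREBBP and DVL1 have both marks at 1 or above, and CHD8 has knockdown 1 at -6.03 and knockdown 2 at 0.24.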

How the data were processed

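HCT116 cells were profiled by ribosome profiling and mRNA-seq (3 libraries each), YTHDF1 RIP with input (1 each) and m6A-seq (2 replicates), and groups came from the sample titles and genotype labels. STAR and the GRCh38 build were used per the submitters' processing notes, with versions not given in the sources used here. As deposited by the authors, the expression table holds a relative signal per gene with no unit named. Its control values are all at least 0.5, so genes low in the control are missing. Low values showed no steps of whole reads, which leaves depth unknown, and neither a count model nor an interval was used. The authors deposited FPKM values for RIP and input with their ratio, listing only genes at a ratio of at least 1.5. The m6A lists hold peaks called per replicate with signals and a deposited ratio of at least 3, per the file headers. These ratios are the authors' own and sorted genes within their list only. The sources used here name neither the peak caller nor the transcripts behind peak positions.

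Analysis used log2(value + 1), on which changes of low genes are understated, and genes with a mean of at least 1 were kept. That filter can remove genes low in both conditions. Footprint libraries were shifted so that the median ratio of footprints to mRNA was 0 in each condition. limma 3.58.1 (R 4.3.3, trend, 2-sided, Benjamini-Hochberg) tested the interaction of assay and condition over all genes with 2 residual degrees of freedom. The fit was tested on simulated data. Classes and families were summarised by medians, level-matched in 10 groups by control mRNA, with no test of a list. Family members were taken by symbol from a written list of 32 families, of which 31 had at least 5 tested genes. RefSeq names (GRCh38.p14) matched 6438 tested genes (94.9%) and gave coordinates and start sequences. The members and lists were chosen with earlier results of these data known.

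Named genes are YTHDF1, the 8 highest and 8 lowest by the knockdown TE change nearest to 0 among genes with a mean of at least 10 in each assay and both changes on 1 side, 10 RIP-listed genes with the most peaks and 10 with the highest ratio, in each family the 3 with the most control mRNA and the highest and lowest with both changes on 1 side, and m6A and Wnt genes. RPL3, RPL27A, RPSA and RPL23A fall outside this rule and were chosen after their values were seen. Alternatives were pseudocounts of 0.5 and 5, no filter and a stricter one, quantile normalisation, no centring, leaving out each knockdown library, a replicate block, other level groups, other peak sets, and, chosen after seeing the data, leaving out genes that hold a snoRNA or miRNA. Values of some single members of these sets are not reported here.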

Additional observations from a re-analysis of the deposited data

How the results depend on the processing

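The count of genes past adjusted p 0.05 in limma was 0 under every alternative run. Genes with an unadjusted p under 0.05, 177 as reported, numbered 168 and 204 with pseudocounts of 0.5 and 5, 180 with no filter, 76 with the stricter filter, 188 with quantile normalisation and 185 without centring. Leaving out 1 knockdown library gave 53 to 684. With the replicate block, a pairing by library number that the labels do not state, 401 genes had such a p and 0 passed, and the difference between the knockdown libraries correlated at 0.37 across genes between footprints and mRNA. Of the named genes only 17 were run singly under these settings, namely YTHDF1 and the highest and lowest genes by TE change. The mean TE change of YTHDF1 was 0.22 and became -0.062 without centring. The other 186 values of these 17 genes kept their side. Apart from YTHDF1 they were chosen for large changes on 1 side in both knockdown libraries, so this says little about other genes. The remaining named genes were not run singly. The gap between the highest and lowest family, 0.53, was 0.60 without knockdown library 1 and 0.76 without knockdown library 2. More than 4 peaks minus none ran from -0.12 to 0.05 with 1 knockdown library left out, any peak minus none from -0.07 to 0.04, and RIP-listed minus not listed from -0.10 to 0.05. Of 344 family medians under alternatives 66 moved beyond the spread between knockdown libraries, as did 12 of 70 m6A class medians. Causes of these differences were not tested. The single control library per assay limits every value, and no read depth is known.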

Other observations

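Some related genes of other families stood on different sides of the control, and others on the same side. In glycolysis LDHB, a lactate dehydrogenase subunit, had footprints of 2260 and 1971 in the knockdown libraries, against 1282 in the control, and TE changes of 0.91 and 1.08. Its partner subunit LDHA had footprints of 3185 and 5010, against 9305, and TE changes of -1.29 and -0.49. HSP90B1, the HSP90 chaperone of the endoplasmic reticulum, had footprints of 508 and 737, against 2266, and TE changes of -1.87 and -1.56, while the cytosolic HSP90AA1 stood at -0.06 and 0.23. Among sterol genes MVD, an enzyme of the mevalonate pathway, stood at 1.35 and 1.95 and FDPS, further along it, at 0.49 and 0.48. Among solute carriers the mitochondrial phosphate carrier SLC25A3 stood at 0.86 and 1.22 with footprints of 1332 and 1365, against 770, and its gene holds a snoRNA. SLC25A21 stood at 3.05 and 3.38 with footprints of 21.1 and 21.0, against 2.52. KDM6B, a histone demethylase with 8 m6A peaks in each replicate, had footprints of 3.32 and 4.99, against 37.9, and TE changes of -2.36 and -1.86. No gene named here passed in limma.

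Some of the widest TE changes belonged to 1 knockdown library. RNF149, whose gene holds a snoRNA, had footprints of 17.2 in knockdown 1 and 301 in knockdown 2, against 945 in the control, and TE changes of -5.64 and -1.03. ZNF33B had footprints of 1.41 and 38.5, against 80.7, and a TE change of -0.48 in knockdown 2. Footprint values of exactly 0 occurred in 105 tested genes in knockdown 1 and 17 in knockdown 2, and in none in the control, whose values all reach 0.5.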
